A study of Homo sapiens with 4 samples.

Results

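The regions described here are BRCA2 sites at which genes of opposite DNA strands begin next to each other. In the authors' deposited table a site was taken when its listed genes included at least 1 gene on the plus strand and at least 1 on the minus strand whose start was covered by the site or lay within 1000 bp of it by the listed distance. Of 15131 sites, 1311 met this rule (8.66%, 95% Wilson interval 8.23 to 9.12). They were 26.0% (24.8 to 27.2) of the 5042 sites at any gene start, and the other 3731 had starts on 1 strand only. Pairs are written with the plus-strand gene first, as in MYO9B/HAUS8. The 1311 sites held 1259 different pairs of nearest genes, and 1154 sites had exactly 2 listed start genes.

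The sites come from chromatin immunoprecipitation with a BRCA2 antibody and sequencing (2 ChIP libraries), set against input chromatin (2 libraries). All 4 libraries came from hTert-HME1, a human mammary epithelial line made immortal by adding telomerase, grown without treatment and collected while dividing. No control antibody was analysed here, and the labels do not say whether replicates were separate cultures. Each concentration below is the authors' mean log2 level of normalized reads over the libraries of a group. The authors' fold is the difference of these levels, BRCA2 ChIP minus input, and the FDR is theirs too. Because no value per library was available, the spread between replicates and the depth are unknown, and no difference between kinds of site was tested. Site positions are on hg19 and intervals on shares cover counting error only. Binding at a start does not show whether the gene was transcribed, and markers of the cell type could not be checked in these data.

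Human genes often lie head to head: their starts are a short distance apart and transcription runs outward in both directions from 1 stretch of DNA. Many such pairs encode proteins of housekeeping functions such as DNA repair, ribosomes or mitochondria, and many coding genes have a noncoding RNA starting on the opposite strand. These promoters are typically CpG-rich and lack a TATA box. BRCA2 acts in the repair of broken DNA by homologous recombination and protects stalled replication forks.

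The stretch between the opposite starts is short enough to show whole. The sequences below run from start to start on the plus strand of RefSeq GRCh38.p14 and were matched to the sites by gene name, because no hg19 genome was used. They were chosen to run from strong coding pairs to weak ones and to show how composition varies, and some stronger coding pairs, such as EIF3B/SNX8, are not shown. Capitals mark matches, on either strand, to 9 short motifs. The ETS motif was searched as CCGGAAG, NF-Y as CCAAT, SP1 as GGGCGG, CREB as TGACGTCA and the TATA box as TATAAA, and those of NRF1, YY1, ZBTB33 and E2F had no match in these stretches. A match is a description of the letters and not of a factor bound there. The log2 fold is that of the pair's site, and a stretch need not lie within that site. At NDC80/METTL4 the site covered neither deposited start, and at CENPP/NOL8 and HARS2/HARS it covered 1. The first 4 pairs had a log2 fold of at least 4 in the authors' deposited table.
MYO9B/HAUS8, chr19:17075534-17075776: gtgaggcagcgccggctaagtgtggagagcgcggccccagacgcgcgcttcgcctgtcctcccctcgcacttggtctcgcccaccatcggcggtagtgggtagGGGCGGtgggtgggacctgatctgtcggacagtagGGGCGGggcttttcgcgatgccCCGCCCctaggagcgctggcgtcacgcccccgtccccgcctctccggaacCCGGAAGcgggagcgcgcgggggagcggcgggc
CENPP/NOL8, chr9:92325351-92325467: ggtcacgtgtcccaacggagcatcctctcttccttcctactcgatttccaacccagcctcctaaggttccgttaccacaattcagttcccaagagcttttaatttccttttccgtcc
ARPC5L/RPL35, chr9:124861958-124862129: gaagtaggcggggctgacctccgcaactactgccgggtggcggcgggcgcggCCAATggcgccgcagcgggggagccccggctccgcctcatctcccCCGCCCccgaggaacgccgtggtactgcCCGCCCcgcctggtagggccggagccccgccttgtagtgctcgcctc
UQCRH/LRRC41, chr1:46303617-46303697: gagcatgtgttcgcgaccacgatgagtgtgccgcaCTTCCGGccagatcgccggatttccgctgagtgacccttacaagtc
The next 3 pairs had log2 folds between 2 and 4.
PAICS/PPAT, chr4:56435616-56435751: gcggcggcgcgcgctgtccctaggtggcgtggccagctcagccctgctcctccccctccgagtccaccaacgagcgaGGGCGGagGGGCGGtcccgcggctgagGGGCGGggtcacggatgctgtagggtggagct
PMS1/ORMDL1, chr2:189784340-189784449: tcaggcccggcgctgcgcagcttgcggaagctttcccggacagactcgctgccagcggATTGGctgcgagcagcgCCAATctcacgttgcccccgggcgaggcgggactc
NDC80/METTL4, chr18:2571506-2571556: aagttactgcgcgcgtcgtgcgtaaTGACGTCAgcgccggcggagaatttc
The last 4 had log2 folds under 2.
PSMD13/SIRT3, chr11:236932-236975: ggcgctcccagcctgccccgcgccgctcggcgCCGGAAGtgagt
HIST1H2AC/HIST1H2BC, chr6:26123927-26124171: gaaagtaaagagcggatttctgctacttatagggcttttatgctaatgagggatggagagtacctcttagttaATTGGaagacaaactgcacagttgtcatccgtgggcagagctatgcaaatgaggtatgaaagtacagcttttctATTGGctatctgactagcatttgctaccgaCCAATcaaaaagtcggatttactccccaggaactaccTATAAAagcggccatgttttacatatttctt
POLH/XPO5, chr6:43576039-43576184: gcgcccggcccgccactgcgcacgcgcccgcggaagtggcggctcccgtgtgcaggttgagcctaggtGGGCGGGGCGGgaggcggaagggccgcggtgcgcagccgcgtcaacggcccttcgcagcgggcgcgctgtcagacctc
HARS2/HARS, chr5:140691371-140691454: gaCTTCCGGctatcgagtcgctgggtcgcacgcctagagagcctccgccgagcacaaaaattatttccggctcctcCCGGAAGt
The 243 bp between MYO9B and HAUS8 were 73.7% G and C and held 3 SP1 matches and 1 ETS match. The 117 bp between CENPP and NOL8, at a site of nearly the same fold, were 49.6% G and C and held no match to any of the 9 motifs. At the weak end, the 84 bp between HARS2 and HARS held 2 ETS matches, and the 245 bp between the histone genes held 3 NF-Y matches and a TATA match at 40.8% G and C. Stretches of over 70% G and C occurred at high and at low folds, as at MYO9B/HAUS8 and at PSMD13/SIRT3 (79.5%).

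The word divergent fits most of these sites, but not all by the deposited starts. Gene starts worked back from the listed distances placed the nearest pair head to head at 741 of the 1311 sites (56.5%, 53.8 to 59.2), with a median gap of 144 bp (quartiles 75 and 282). The other 570 sites (43.5%, 40.8 to 46.2) had starts that had already passed each other, so that the genes overlap at their 5′ ends by a median of 349 bp (quartiles 166 and 588). For each gene a single start, the outermost, is listed, and the order rests on it. At 656 sites both genes had starts in RefSeq, and in 556 of them (84.8%) the closest opposite starts lay within 1000 bp. Of those 556, 497 (89.4%, 86.6 to 91.7) were head to head by RefSeq, with a median gap of 166 bp, against 293 (52.7%) by the deposited starts. PSMD13 and SIRT3, a proteasome subunit and a mitochondrial deacetylase, overlap by 385 bp in the deposited distances and are 44 bp apart in RefSeq.

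**Figure D1:**
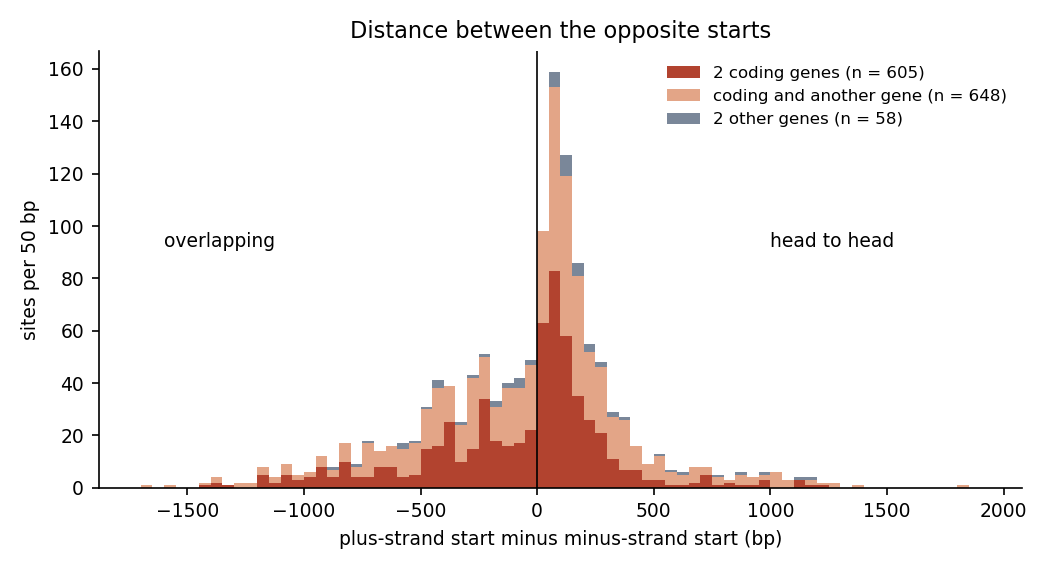
Number of sites against the distance from the minus-strand start to the plus-strand start in bp, by the starts that the deposited distances give (1311 sites, positive values head to head and negative values overlapping), stacked by whether both genes, 1 gene or neither is matched as protein-coding. The median was 47 bp, with a tail of overlapping pairs reaching -1676 and a tail of gaps reaching 1828.

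The widest gap was 1828 bp, between CPNE3, a calcium-dependent membrane-binding protein, and the pseudogene NTAN1P2, at a log2 fold of 1.27. JARID2, a subunit of a Polycomb complex, was 1296 bp from RP11-560J1.2 (1.26). The longest overlaps were those of SNUPN, the import adaptor of spliceosomal RNPs, with CTD-2026K11.3 (1676 bp, log2 fold 1.80), of BZW1 with AC007163.6 (1576 bp, 5.36) and of TMEM39B with RP11-277A4.4 (1443 bp, 1.36). Of these extreme pairs in the authors' deposited table, BZW1 alone had a log2 fold over 2.

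In the middle of the distribution, sites with starts on both strands looked like those with starts on 1 strand. The median log2 fold was 1.26 (95% interval over sites 1.23 to 1.29) with both strands and 1.26 (1.24 to 1.27) with 1 strand. The difference of the medians was 0.00, and the median over all sites of the authors' deposited table was 1.15. Both concentrations stood slightly higher with starts on both strands: the median ChIP concentration was 6.71, against 6.63 with 1 strand, and the median input concentration was 5.45, against 5.36. All 1311 sites were above input.

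The upper end of the distribution differed at a log2 fold of 4, but this was not tested. The planned share was the one at 2 or more, and the cut at 4 was outside the plan. At a log2 fold of 4 or more stood 85 of the 1311 sites (6.48%, 5.27 to 7.95), against 149 of the 3731 with starts on 1 strand (3.99%, 3.41 to 4.67) and 2.03% of all sites in the authors' deposited table. At 2 or more stood 204 (15.6%, 13.7 to 17.6), against 520 (13.9%, 12.9 to 15.1) and 10.9% of all sites, so that those intervals overlap. An FDR under 0.001 was held by 752 (57.4%, 54.7 to 60.0), against 1991 (53.4%, 51.8 to 55) and 44.6% of all sites. Read the other way, both-strand sites made up 24.6% of the start sites with a log2 fold under 1, 24.3% (20.7 to 28.3) of those from 2 to 4, and 36.3% (30.4 to 42.7) of those at 4 or more. The share was thus higher in the top band than in the bands below it, where it stayed near 26.0%.

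**Figure D2:**
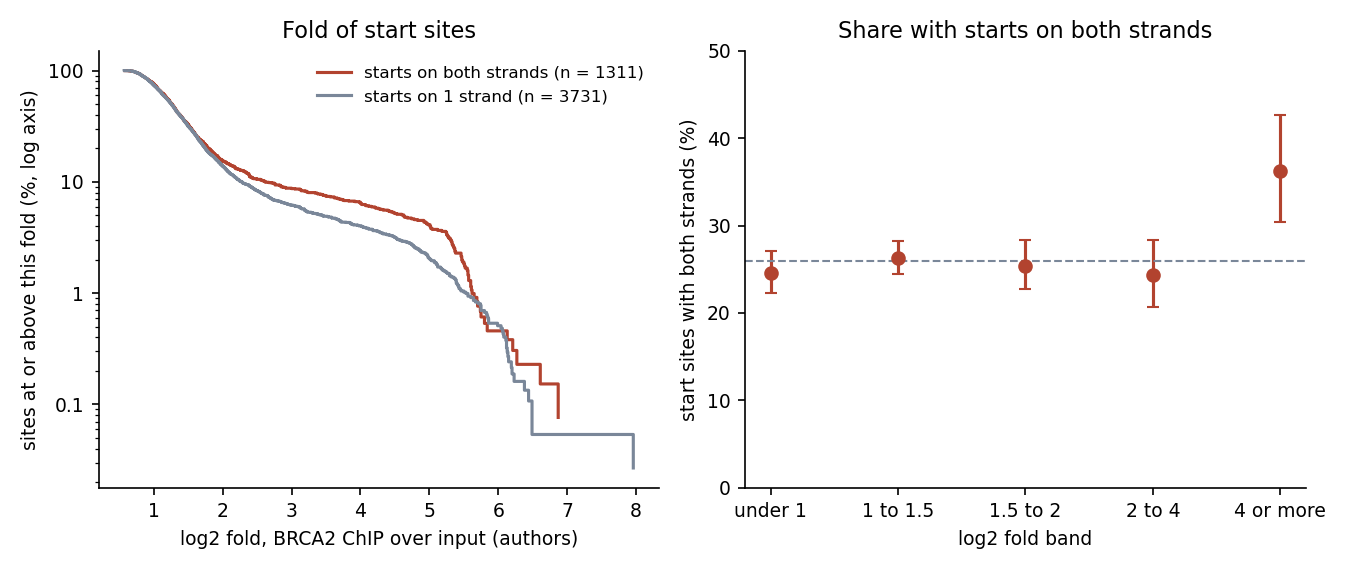
Left, percent of sites (log axis) at or above each log2 fold of BRCA2 ChIP over input, for sites with starts on both strands (n = 1311) and on 1 strand (n = 3731). Right, percent of start sites with starts on both strands in each fold band, with 95% Wilson intervals and the share over all start sites (26.0%) as a dashed line. The curves coincide up to a log2 fold near 2, and the share is 36.3% in the top band.

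The strongest sites did not have a lower input with starts on both strands than with starts on 1. The 85 strongest both-strand sites had a median ChIP concentration of 10.45 and a median input of 5.45, and the 149 strongest sites with starts on 1 strand had 10.26 and 5.13. Among sites with starts on 1 strand that had 2 or more listed start genes, 11 of 215 (5.12%, 2.88 to 8.93) reached a log2 fold of 4. That interval holds both the 6.48% of the both-strand sites and the 3.99% of all sites with starts on 1 strand. Listed genes can include locus reference records and joined entries of neighbouring genes, so these sites need not have 2 separate starts. Leaving out chromosomes 4, 10, 13, 14, 18 and X, 71 of 1145 both-strand sites (6.20%, 4.95 to 7.75) and 122 of 3260 one-strand sites (3.74%, 3.14 to 4.45) reached 4. The 85 sites lay on 22 chromosomes and had 85 different pairs, 49 head to head and 36 overlapping.

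The largest fold belonged to PAXIP1-AS1/PAXIP1, whose coding gene makes a BRCT-domain protein of the DNA damage response. Its site at chr7:154794723-154795222 had 9.86 in BRCA2 ChIP and 2.99 in input, a log2 fold of 6.87 (117-fold) at an FDR of 4.61e-59 in the authors' deposited table. LINC00167/PRDM10, a noncoding RNA and a zinc finger regulator, had 11.58 in ChIP and 4.97 in input at chr11:129872167-129872666, a log2 fold of 6.61 (FDR 2.69e-144). CCDC85C with RP11-543C4.1 had 8.67 in ChIP and 2.40 in input (log2 fold 6.27, FDR 5.6e-38), and ATP8A1, a phospholipid flippase, with a clone-named transcript had 9.82 and 3.61 (6.21, FDR 8.89e-15). PAXIP1, CCDC85C and ATP8A1 had inputs far under the median of 5.45, and a low input makes a fold large. The other 7 of the 10 largest folds had inputs between 4.97 and 6.37 and ChIP levels of 11.10 or more.

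Among these 7, EIF3B/SNX8, a subunit of translation initiation factor 3 and a sorting nexin, had 11.74 in ChIP and 5.60 in input at chr7:2394097-2394596 (log2 fold 6.13, FDR 7.58e-167). PMVK, a kinase of the mevalonate pathway, with RP11-307C12.13 had 11.64 in ChIP and 5.80 in input (5.84, FDR 5.69e-162). MYO9B/HAUS8, an unconventional myosin and a subunit of the augmin complex of the spindle, had 11.10 in ChIP and 5.30 in input at chr19:17186111-17186610 (5.80, FDR 2.24e-110). Of the 10 largest folds in the authors' deposited table, EIF3B/SNX8 and MYO9B/HAUS8 were the only pairs with 2 genes matched as coding. The rest of the 10 were TAF15 with AC015849.12 (log2 fold 5.75), MGEA5 with KCNIP2-AS1 (5.74) and WRAP53 with RP11-199F11.2 (5.70). TAF15 makes an RNA-binding protein of the FET family, MGEA5 the enzyme that removes O-GlcNAc from proteins, and WRAP53 a protein that brings telomerase RNA to Cajal bodies.

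By FDR the order changed. Of the 10 largest folds, those of PAXIP1, CCDC85C, ATP8A1 and MYO9B/HAUS8 were not among the 10 smallest FDRs. MGEA5 with KCNIP2-AS1 had the smallest FDR of the both-strand sites, 4.07e-227, and the highest ChIP concentration, 12.11 against an input of 6.37, at chr10:103578083-103578582. BCCIP/UROS came next, with 12.02 in ChIP and 6.41 in input at chr10:127511731-127512230 (log2 fold 5.60, FDR 8e-204 in the authors' deposited table). BCCIP encodes a protein that binds BRCA2, and UROS an enzyme of heme synthesis, and their starts lie 298 bp apart. CD164, a sialomucin, with RP11-425D10.10 had a log2 fold of 5.69 (FDR 1.19e-134), and DOHH, which completes the hypusine of eIF5A, with RN7SL866P had 5.18 (FDR 1.96e-125). MGEA5 and BCCIP lie on chromosome 10, and their inputs were about 1 log2 unit above the median of the both-strand sites.

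**Figure D3:**
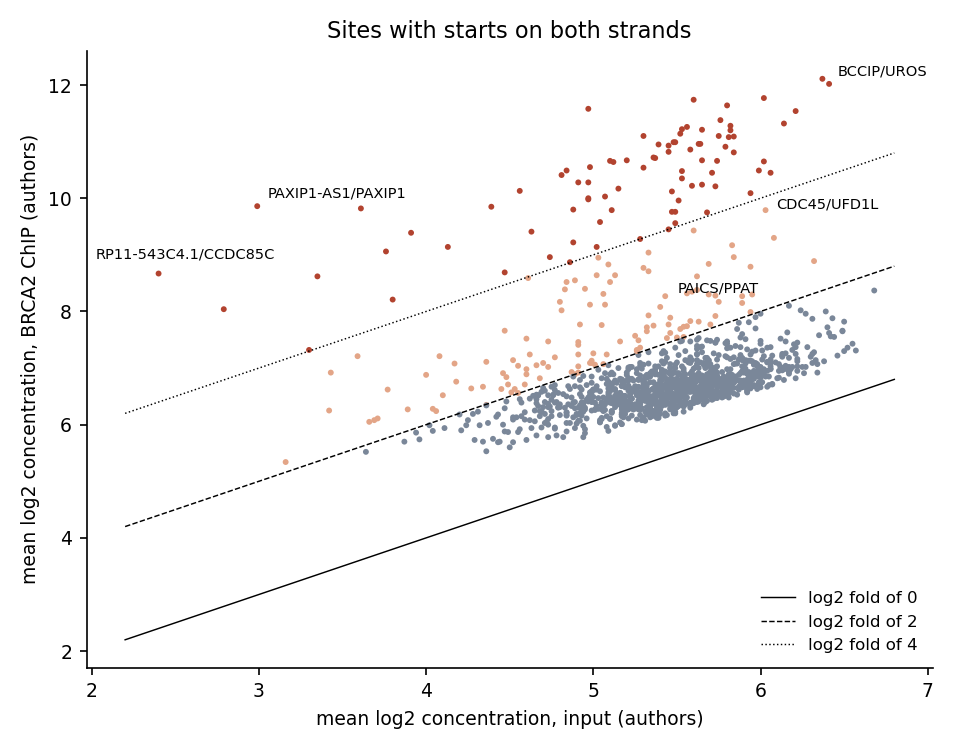
Mean log2 concentration in BRCA2 ChIP against that in input for the 1311 sites with starts on both strands, 1 point a site, with lines at log2 folds of 0, 2 and 4 (grey under 2, light red from 2 to 4, dark red at 4 or more). The 85 dark points lie mostly at inputs around the median of 5.45, while PAXIP1-AS1/PAXIP1 and RP11-543C4.1/CCDC85C have inputs of 2.99 and 2.40.

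At the weak end the folds sat close to the limit of detection of the authors' deposited table, which holds sites up to an FDR of 0.05. GOT1, a transaminase of the malate-aspartate shuttle, with RP11-441O15.3 had the smallest log2 fold, 0.58 (FDR 0.0491), followed by SH2D5 with RP5-930J4.2 at 0.61 (FDR 0.0484) and ING4 with RP4-761J14.8 at 0.63 (FDR 0.0436). The lowest ChIP concentrations were 5.34 at PMS2P5/STAG3L2, 5.52 at PXMP2/POLE and 5.53 at ZNF641/RP11-370I10.6. PXMP2/POLE, the second of which is the catalytic subunit of DNA polymerase epsilon, had an input of 3.64 and a log2 fold of 1.89 (FDR 7.02e-04). PMS2P5 and STAG3L2 belong to families of near-identical copies, so how reads were divided among the copies is uncertain. A low ChIP level at these sites thus went with a log2 fold between 1.18 and 2.19, above the smallest ones.

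The kind of gene on each side made little difference to the middle of the folds. By RefSeq, both genes were matched as protein-coding at 605 sites (46.1%), 1 was at 648 (49.4%) and neither was at 58 (4.42%). Median log2 folds in the authors' deposited table were 1.24, 1.29 and 1.21 for these 3 kinds. Log2 folds of 4 or more were found at 48 of the 605 coding pairs (7.93%, 6.04 to 10.4), 35 of the 648 mixed pairs (5.40%, 3.91 to 7.42) and 2 of the 58 others (3.45%, 0.951 to 11.7), with intervals that overlap. The other partner in mixed pairs was most often a clone-named transcript without a match in RefSeq (359 sites, 55.4%), whose kind is thus not known here. Next came long noncoding RNAs not named as antisense or LINC (125, 19.3%) and genes named as antisense (90, 13.9%). Pseudogenes (25), microRNAs (20), small RNAs (12) and LINC genes (9) were the remaining named kinds. The coding gene lay on the plus strand in 326 mixed pairs and on the minus strand in 322.

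Sites in mixed pairs were centred on neither gene in particular. The site centre lay a median of -11 bp from the coding start (quartiles -221 and 178, negative values upstream). It lay 26 bp from the start of the other gene (quartiles -185 and 208). The centre was nearer the coding start in 328 of 648 (50.6%, 46.8 to 54.5). At coding starts without an opposite start the median was -6 bp (quartiles -184 and 170), a like position.

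For head-to-head pairs, the centre of the site fell between the starts at 190 of 741 (25.6%), on the side of the plus-strand gene at 266 (35.9%) and on the side of the minus-strand gene at 285 (38.5%). At a log2 fold of at least 2 in the authors' deposited table the centre fell between the starts at 39 of 123 (31.7%), and below it at 151 of 618 (24.4%). The stronger sites also had wider gaps, with a median of 174 bp against 138 bp. A difference in position apart from the gap was not tested. Most sites are 500 bp wide (1284 of 1311), wider than the typical gap, and 528 covered both nearest starts, 543 covered 1 and 240 covered neither. Median log2 folds were 1.22 with both starts covered, 1.28 with 1 and 1.35 with none. At ARPC5L/RPL35 and MRPS11/MRPL46 both starts were covered, while at MCM4/PRKDC the whole site lay inside MCM4, with its centre 608 bp downstream of that start.

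Binned by the gap, the largest share of strong sites was found where starts lay over 200 and up to 500 bp apart. There 22 of 184 sites (12%, 8.03 to 17.4) reached a log2 fold of 4, against 5.43% at gaps of up to 100 bp, 4.76% at over 100 and up to 200 bp and 3.37% at over 500 bp. PAXIP1, PMVK, BCCIP and CD164 were among them, with gaps of 364, 379, 298 and 236 bp. Among overlapping pairs the share was 4.22% at an overlap of up to 200 bp, 6.96% at over 200 and up to 500 bp and 7.47% above. The bins were chosen after seeing the data, and the head-to-head order itself depends on which start is used. Taken as a whole, head-to-head pairs had a median log2 fold of 1.27 with 6.61% at 4 or more, and overlapping pairs 1.26 with 6.32%, in the authors' deposited table. By RefSeq starts the 497 head-to-head sites had a median of 1.22 with 7.44% (5.45 to 10.1) at 4 or more, and the 59 overlapping ones 1.37 with 11.9% (5.87 to 22.5). At 2 or more these were 16.5% (13.5 to 20) and 25.4% (16.1 to 37.8).

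**Figure D4:**
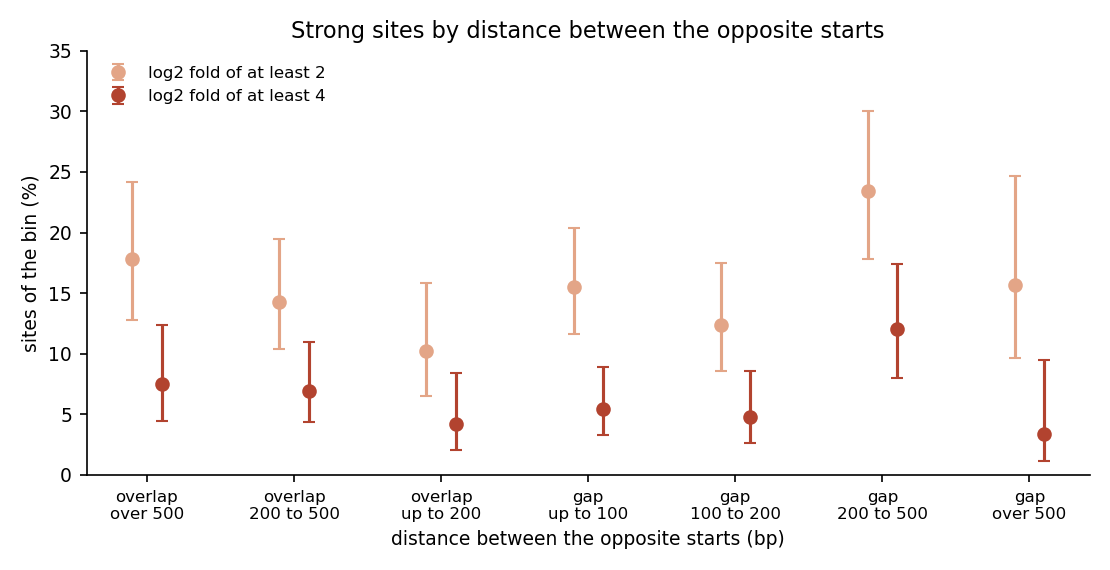
Percent of both-strand sites at a log2 fold of at least 2 and of at least 4, by the distance between the opposite starts in bp, with 95% Wilson intervals. The bin of gaps over 200 and up to 500 bp has the highest values, 23.4% and 12%.

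At 52 pairs the table held 2 separate sites, and at 41 of these the sites stood on opposite sides of the midpoint between the starts. Their centres were a median of 648 bp apart, from 506 to 1149 bp. The log2 folds of the paired sites differed by a median of 0.34, and by up to 3.87. TOX4/RAB2B, a chromatin protein and a Rab GTPase, had 4.92 at one site and 1.05 at the other in the authors' deposited table. NABP2/RNF41, the first of which encodes the single-stranded DNA binding protein SSB1, had 3.74 and 0.93, and FARS2/LYRM4 had 3.22 and 1.74. Of the 52 pairs, 11 had a site at a log2 fold of at least 2 and 2 had both. Over all both-strand sites the share at 2 or more was 15.6%. That share counts single sites, so it cannot be set directly beside counts of pairs with 2 sites.

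Genes of homologous recombination and other repair were frequent at these sites but their folds were ordinary. Of 38 homologous recombination and Fanconi genes with any site at their start, 22 (57.9%, 42.2 to 72.1) had one with an opposite start, and of 40 other repair genes 24 did (60.0%, 44.6 to 73.7). Over all 4724 coding genes with a start site the share was 38.7% (37.3 to 40.1). Counts for this and the other gene lists are of genes, not of sites. Genes of a list that share a site each count, although the intervals treat them as separate. The median log2 folds in the authors' deposited table were 1.16 and 1.19 for these lists, against 1.27 for all coding genes at both-strand sites. A log2 fold of 2 was reached by 1 of the 22, BCCIP, and by 3 of the 24, against 299 of the 1828 coding genes at both-strand sites (16.4%). After BCCIP came BRCC3/CMC4 (1.79), the first a deubiquitinase of the BRCA1-A complex, and FANCD2 with CIDECP (1.77), a central protein of the Fanconi pathway. The other repair genes that reached 2 were PRKDC with MCM4 (5.34), PMS1 with ORMDL1 (2.84) and REV3L with TRAF3IP2-AS1 (2.62), which encode the DNA-dependent protein kinase, a mismatch repair protein and the catalytic subunit of polymerase zeta.

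Well-known head-to-head pairs show the range. MCM4/PRKDC, a helicase subunit and a kinase of end joining, shared a site at chr8:48873104-48873603 with 10.71 in ChIP and 5.37 in input (FDR 6.74e-90 in the authors' deposited table). CDC45/UFD1L, a replication helicase factor and a cofactor of p97, had 9.79 in ChIP and 6.03 in input (log2 fold 3.76, FDR 4.15e-37). PAICS/PPAT, which encode enzymes of purine synthesis, had 8.27 in ChIP and 5.43 in input (2.84, FDR 5.28e-20). The remaining known pairs with a shared site all had log2 folds under 2.

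ATM/NPAT, the checkpoint kinase and a histone gene activator, had a site of 1.66 and another of 1.16. BRCA2 with ZAR1L had 6.31 in ChIP and 5.13 in input, a log2 fold of 1.18 (FDR 0.00444 in the authors' deposited table), and NBR2/BRCA1 had 6.69 and 5.98, a log2 fold of 0.71 (FDR 0.0242). The promoters of the 2 breast cancer genes thus had folds under the both-strand median of 1.26. PSMD13/SIRT3 had 1.48, AIMP2/PMS2 1.27, GAS2/FANCF 1.14, FEN1 with TMEM258 1.04, TBP/PSMB1 1.03, POLH/XPO5 0.92 and HARS2/HARS 0.88. FEN1 is the flap endonuclease of lagging-strand synthesis, and POLH a translesion polymerase.

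Of 25 known pairs looked up, 14 had a site with both starts. UNG/ALKBH2 had a site at the start of ALKBH2 alone (log2 fold 1.27) by the listed distances. HSPD1 and HSPE1, the mitochondrial chaperonin genes, had separate sites at 1.89 and 1.47. The listed HSPD1 start was at a site shared with MOB4, and why the sites were separate was not tested. Among the 8 pairs without a start site in the authors' deposited table were SURF1/SURF2, TAP1/PSMB9, COL4A1/COL4A2, ERCC8/NDUFAF2, FANCB/MOSPD2 and MRPS12/SARS2.

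Replication genes had the highest median fold of the lists with over 12 genes at both-strand sites. Of 29 with a start site, 14 (48.3%, 31.4 to 65.6) were at both-strand sites, an interval that holds the 38.7% of all coding genes. Their median log2 fold was 1.51, and 4 of the 14 stood at 2 or more, against 16.4% of all coding genes at both-strand sites. MCM4 and CDC45 led, followed by TYMS with C18orf56 at 3.66, which makes thymidylate for DNA synthesis. Mitosis genes were at both-strand sites in 9 of 29 (31.0%) with a median of 0.90 in the authors' deposited table, and 3 reached 2. CENPP/NOL8, a centromere protein and a nucleolar protein, had 10.82 in ChIP and 5.45 in input (log2 fold 5.37, FDR 3.82e-85). RIBC1/SMC1A, the second a cohesin subunit, had 3.98 and NDC80/METTL4, the first a kinetochore protein that binds microtubules, had 2.44. The mitosis list thus held some strong sites above a low median.

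Among genes of the respiratory chain, 27 of 49 with a start site (55.1%, 41.3 to 68.1) had an opposite start, against 38.7% of all coding genes. Their median log2 fold was 1.23, and 6 (22.2%) stood at 2 or more, against 16.4% of all coding genes at both-strand sites. CPSF2/NDUFB1, a subunit of the mRNA 3′ cleavage complex and one of respiratory complex I, had 8.62 in ChIP and 3.35 in input (log2 fold 5.27, FDR 4.99e-38 in the authors' deposited table), a low input. UQCRH/LRRC41, the first a complex III subunit, had 10.65 in ChIP and 6.02 in input (4.63, FDR 8.8e-76), and UQCRQ/GDF9 had 4.60. Mitochondrial ribosome genes were there in 15 of 40 (37.5%), near the 38.7% of all coding genes, with 4 at 2 or more. Among these 4, MRPS11 and MRPL46 share a site. MRPS11/MRPL46, in which a small-subunit and a large-subunit gene start 34 bp apart, had 10.45 in ChIP and 5.71 in input (4.74, FDR 6.5e-70), and PTCD2/MRPS27 had 4.92.

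Cytosolic ribosomal protein genes were at both-strand sites in 17 of 52 (32.7%), against 38.7% of all coding genes. Of the 17, 1 reached 2, against 16.4% of all coding genes at both-strand sites. It was at ARPC5L/RPL35, with 10.03 in ChIP and 5.07 in input (log2 fold 4.96, FDR 1.09e-54 in the authors' deposited table). SPHK2/RPL18 followed at 1.60 and RPS28/NDUFA7 at 1.54. Spliceosome genes were there in 18 of 39 (46.2%), among them CDC40/WASF1, the first a second-step splicing factor, with 9.75 in ChIP and 5.68 in input (4.07, FDR 1.55e-44). AVL9/LSM5, the second a protein of the U6 snRNA ring, followed at 1.83. Translation initiation genes were there in 11 of 33 (33.3%), led by EIF3B, EIF2AK3 with AC062029.1 (3.22) and SNX17/EIF2B4 (1.88). EIF2AK3 is the stress kinase PERK, and EIF2B4 a subunit of the exchange factor for eIF2. Aminoacyl-tRNA synthetase genes were there in 11 of 23 (47.8%) with a median of 0.88, led by FARS2/LYRM4 (3.22), S100PBP/YARS (1.82) and DDX19B/AARS (1.44).

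Genes of RNA polymerase II and elongation were at both-strand sites in 12 of 25 (48.0%, 30.0 to 66.5), an interval that holds the 38.7% of all coding genes, and 3 reached 2, against 16.4% of all coding genes there. TSPAN4/POLR2L, the second a small polymerase subunit, had 9.39 in ChIP and 3.91 in input (log2 fold 5.47, FDR 9.76e-51 in the authors' deposited table), POLR2A/ZBTB4, the first the largest subunit, had 9.56 and 5.49 (4.08, FDR 6.29e-35), and SUPT6H/SDF2, the first a histone chaperone of elongation, had 2.11. Chaperone and unfolded protein response genes were there in 12 of 20 (60.0%, 38.7 to 78.1), led by CCT5/FAM173B, the first a subunit of the cytosolic chaperonin, with 10.12 in ChIP and 5.47 in input (4.64, FDR 6.1e-58). Proteasome genes were there in 5 of 20 (25%), led by SS18L1/PSMA7 with 7.32 in ChIP and 3.30 in input (4.02, FDR 5.49e-04). That FDR is far larger than the 1.55e-44 of CDC40/WASF1 at a like fold. PSMD7 with AC009120.4 had 1.77.

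Histone and zinc finger genes are large families of similar copies. Replication-dependent histone genes, which are often arranged as H2A/H2B pairs, were at both-strand sites in 22 of 39 (56.4%, 41.0 to 70.7), and 0 of these reached a log2 fold of 2. The largest log2 fold of these histone genes was 1.32, at HIST1H2AC/HIST1H2BC (7.72 in ChIP and 6.4 in input in the authors' deposited table) and at HIST1H2BB. Both genes of such a pair count among the 22, although they share a site. Histone genes are near-identical copies, and how reads were divided among them is uncertain. Genes named ZNF were there in 50 of 186 (26.9%, 21.0 to 33.7), below the 38.7% of all coding genes, with 4 at 2 or more. Over all coding genes at both-strand sites, 16.4% stood at 2 or more. ZNF564 and ZNF709 with CTD-2192J16.11 share a site at 3.68 and both count among the 4, and ZNF276/VPS9D1 had 3.12. Immediate early genes had a start site in 6 cases and an opposite start in 0 of them, which allows a share of up to 39.0%.

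In RefSeq promoter windows, from 250 bp before to 50 bp after a start, base composition at both-strand sites was close to that at sites with starts on 1 strand. Over 2213 windows of 1560 genes with both strands, G and C made up a median of 63.3% with 25 CpG, against 63.7% and 25 over 3344 windows with starts on 1 strand and 62.3% and 21 over the windows of all coding genes. The ETS motif CCGGAAG was in 23.5% (21.8 to 25.3) of the both-strand windows, 21.3% (20 to 22.7) of the one-strand windows and 12.8% of all coding windows. YY1 (AAGATGGCG) was in 4.97%, 4.55% and 2.41%, ZBTB33 (CTCGCGAG) in 2.80%, 2.24% and 1.38%, and NRF1 (GCATGCGC) in 5.47%, 5.86% and 3.74%. The CREB motif TGACGTCA was in 4.02% (3.28 to 4.92), 2.87% (2.36 to 3.49) and 2.26%, and the E2F motif TTTCCCGC in 3.71% (3.00 to 4.58), 2.51% (2.03 to 3.10) and 1.99%.

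SP1 (GGGCGG) was in 64.5%, 66.2% and 56.3%, NF-Y (CCAAT) in 38.0%, 37.0% and 34.7%, and TATAAA in 5.92%, 5.59% and 9.47%. Over windows of all RefSeq genes the shares ran from 1.02% for ZBTB33 to 44.9% for SP1. Both start-site groups thus had more ETS, YY1 and ZBTB33 matches and fewer TATA matches than coding genes at large. For CREB and E2F the one-strand share was nearer to that of all coding genes than to the both-strand share. In the last 150 bases before the start YY1 was in 29 both-strand windows (1.31%, 0.914 to 1.88) and 20 one-strand windows (0.598%, 0.388 to 0.922). Over all coding windows it was in 0.469%, so that there too the one-strand share was nearer to all coding genes. These counts are small and the first 2 intervals overlap slightly. In that part CREB (2.15 to 3.52 against 1.66 to 2.64) and E2F (1.6 to 2.81 against 1.06 to 1.86) also had overlapping intervals. ETS was in 16% and 15%, NRF1 in 4.29% and 4.1%, and ZBTB33 in 1.76% and 1.5%. The windows of a pair overlap and share sequence, a gene can have several windows, motifs can overlap within a window (TTTCCCGC with GGGCGG), and a window need not be the start nearest the site.

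**Figure D5:**
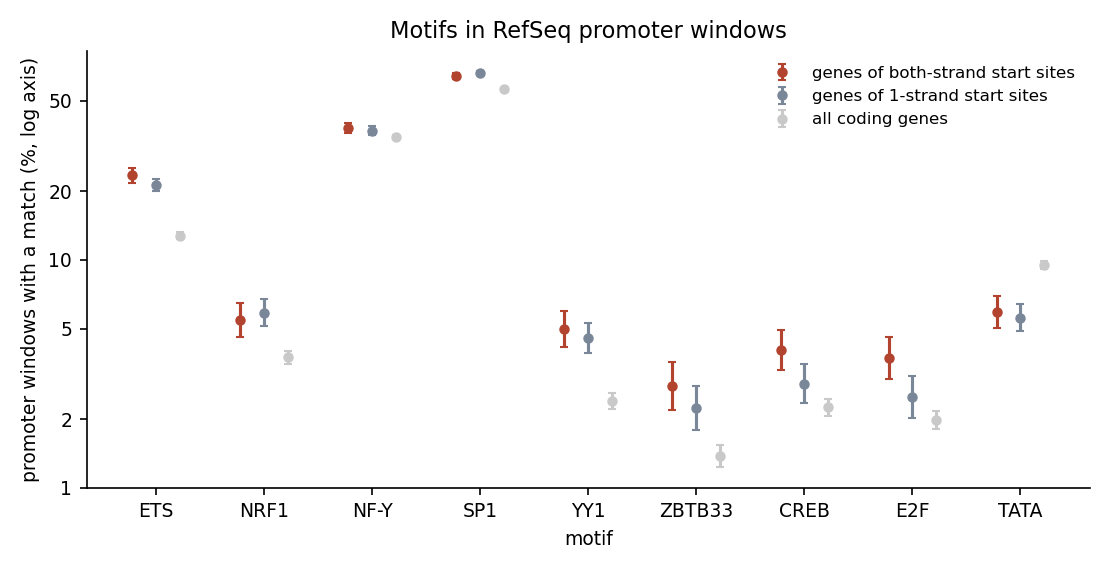
Percent (log axis) of RefSeq promoter windows with at least 1 match to each of 9 motifs, for genes at sites with starts on both strands, genes at sites with starts on 1 strand, and all coding genes, with 95% Wilson intervals. ETS stands at 23.5%, 21.3% and 12.8%, and TATA at 5.92%, 5.59% and 9.47%.

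By chromosome, the both-strand share of start sites ran from 15.9% (14 of 88, 9.72 to 25) on the X chromosome to 41.2% (21 of 51, 28.8 to 54.8) on chromosome 18, and chromosome 1 held the most both-strand sites, 152. Chromosome 18 includes TYMS and NDC80/METTL4, and the X chromosome SMC1A and BRCC3. The site with the most listed start genes, 5, was that of RFXANK with MEF2B (log2 fold 0.88). Another 19 sites had 4, among them those of JMJD7 and PLA2G4B with RP11-23P13.4 (2.92) and of NLGN2 with TMEM256 (2.76). Not all of the listed genes are separate genes. They include the locus reference record LRG_102 at the first site and joined entries such as MEF2BNB-MEF2B, JMJD7-PLA2G4B and TMEM256-PLSCR3. Just inside the limit of 1000 bp lay ATRAID/SLC5A6 at 1000 bp (log2 fold 1.84), DLG1-AS1/DLG1 at 999 bp (1.46) and MIR5572 with RP11-379K22.3 at 997 bp (0.94). Just outside it were AGPAT6 at 1004 bp (3.79), SLC35B1 at 1007 bp (1.02) and TOB1 at 1007 bp (1.77) in the authors' deposited table.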

How the data were processed

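The data are a site table from ChIP-seq with 2 BRCA2 ChIP and 2 input libraries of hTert-HME1 cells. Named in the submitters' processing notes, without settings or roles, are DiffBind, MACS2, Picard 1.92, SAMtools, Bowtie 1.1.1 and cutadapt 1.8.1, and the build hg19. Per the series' design text, ChIP and input were compared by DiffBind. Not given in the sources used here are its scaling and the annotation release. Per the file headers, the authors' deposited table gives mean log2 concentrations of the ChIP and input groups, their log2 fold and an FDR (a q-value), up to 0.05. It also gives, per the file headers, a distance in bp from each site to a gene, which runs to the low-coordinate edge of the site for both strands. Start positions counted from 0 in the deposited table are given from 1. A deposited symbol list was not used.

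Rows were grouped into sites, and gene starts were worked back from the distances. The 4654 genes listed at several sites gave 1 start each. Gene kinds came from RefSeq by Entrez ID, symbol or synonym, and 503 of 2800 start rows matched none. Sequences came from RefSeq GRCh38.p14 promoter windows. Counts at log2 folds of 2 and 4 and at an FDR of 0.001, medians with 95% order-statistic intervals and Wilson intervals were computed with Python 3.11.15, pandas 2.3.3, numpy 2.4.6, scipy 1.17.1 and statsmodels 0.14.6, and plots with matplotlib 3.10.9. The steps were tested on simulated data. As the table holds group means, depth per library is unknown and no test was run. Alternatives were windows of 500 and 2000 bp, the shortest distance, the listed distance alone, stricter FDR and fold, coding genes only, 6 chromosomes left out, and a motif window of 150 bases.

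Named sites were set by rule: the 10 largest folds, the 10 smallest FDRs, the 5 highest and 3 lowest ChIP levels, the 3 smallest folds, the 3 on each side of the distance limit, 3 with the most start genes (ties broken by fold), the 3 widest gaps and 3 longest overlaps, the 3 largest folds of each of 16 lists, and 25 known pairs. Stretches between starts were to be shown for the largest folds and known pairs, and those of CENPP/NOL8, ARPC5L/RPL35, UQCRH/LRRC41, PMS1/ORMDL1, NDC80/METTL4 and the histone pair, and the pairs with 2 sites named, were added after their values were seen. Some items that the rule takes are not reported here. The both-strand sites, lists and pairs were chosen with earlier results of these data known.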

Additional observations from a re-analysis of the deposited data

How the results depend on the processing

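Leaving out each replicate in turn was not possible, because the deposited table holds group means. No paired analysis was possible because the columns are means over a group and carry no replicate number. Of the recomputed values 55 stayed within their main interval, or within 1.5 times a main count, and 28 moved, with 0 reversed. Most are counts, shares or medians of 1 group and have no direction to reverse. The difference of median log2 folds was 0.00 in the main setting, so it had no direction either. The share at a log2 fold of 4 or more was not among these values. Its recomputation without 6 chromosomes is given above. The listed distance alone returned every main value unchanged, so its values among the 55 tell nothing about robustness. A window of 500 bp left 829 sites, 20.2% of start sites, with 59.7% head to head and a median input of 5.49. A window of 2000 bp gave 27.3% of start sites, 50% head to head and a median gap of 0 bp. The shortest distance gave 27.9%. At an FDR under 0.01 the median log2 fold was 1.35, the share at 2 or more 18.7% and the median input 5.41. At a log2 fold of at least 1 these were 1.41, 20.4% and 5.36, which follows from removing weak sites. Coding genes alone left 622 sites, 14.7% of start sites, 100% of them coding pairs by construction, with a median input of 5.52. RefSeq starts, an alternative chosen after seeing the data, gave 89.4% head to head. Leaving out locus reference records, likewise added later, kept the number of sites within 1.5 times. A shorter promoter window of 150 bases is a part of the main one, so motif shares could not rise in it. At both-strand genes they were ETS 16.0%, NRF1 4.29%, NF-Y 27.3%, SP1 52.0%, YY1 1.31%, ZBTB33 1.76%, CREB 2.76%, E2F 2.12% and TATA 3.07%, all smaller. For the distance windows the cause was not tested.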
